A study of Mus musculus with 16 samples.

Results

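Immediate early genes were followed in the gonadal fat of mice in which the subdiaphragmatic vagus nerve had been cut or left intact and the melanocortin receptors of the brain had been blocked or left free. The genes were the 10 transcription factors Fos, Fosb, Jun, Junb, Jund, Egr1, Egr2, Nr4a1, Atf3 and Ier2, taken from a count table of 24454 genes by their NCBI gene numbers. All 10 had counts in all 16 libraries, between 48 and 3764 reads a library. All 10 also passed the low-count filter, as did 16682 genes in all.

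The mice were lean C57BL/6J males of 16 weeks on standard chow. They underwent subdiaphragmatic vagotomy (sDVX) or a sham operation, and 4 weeks later received vehicle or SHU9119, a synthetic melanocortin peptide that blocks the receptors MC3R and MC4R, into the cerebral ventricles. SHU9119 was given at 1 nmol per day for 2 weeks from osmotic minipumps, and all mice were fed isocalorically during that time. Every group thus had an operation and an infusion. The 4 groups are called Sham_Veh, Sham_SHU, VX_Veh and VX_SHU, with 4 libraries each of polyA RNA from whole frozen fat, and a library is named by its group and replicate number. Nothing in the labels ties each library to a mouse of its own, so p-values here speak of the spread among these libraries only, which may be technical.

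Immediate early genes are transcribed within minutes of a stimulus from factors that are already in the cell, without new protein synthesis, and most of their messages and proteins are then lost again quickly. Growth factor signals reach them through ERK kinases, TCF factors and serum response factor (SRF) at the CArG box, and signals that raise cyclic AMP or calcium reach them through CREB at the cyclic AMP response element and its core TGACG. FOS and JUN proteins pair as AP-1 and bind TGACTCA, EGR proteins bind GC-rich sites such as GCGTGGGCG, and NR4A1 is an orphan nuclear receptor that binds AAAGGTCA. In fat, adrenergic stimulation, refeeding and insulin are known to raise several of these messages.

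Promoter windows of RefSeq (build GRCm38.p6), from 250 bases before to 50 after a start site, were found for 8 of the 10 genes. Egr1 and Ier2 had no window and were not searched. The upstream parts of the windows are printed below for Fos, Jun and Nr4a1, with short stretches for Fosb and Egr2. Those of Fos and Jun lie just upstream of the RefSeq gene. That of Nr4a1 precedes an internal start site and lies within the gene, between exons of GENCODE M21. Of Fosb and Egr2 only a short stretch is shown, which lies within the RefSeq gene and in no exon of GENCODE M21. Capitals mark TGACG, which appears as CGTCA where it lies on the other strand, TGACNTCA in Jun, and the CArG box in Egr2.
Fos, chr12:85473640-85473889, plus strand: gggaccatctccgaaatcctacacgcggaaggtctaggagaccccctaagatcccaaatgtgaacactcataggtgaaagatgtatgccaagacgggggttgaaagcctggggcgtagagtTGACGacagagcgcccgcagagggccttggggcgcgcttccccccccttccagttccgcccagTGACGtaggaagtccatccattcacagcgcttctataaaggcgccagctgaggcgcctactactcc
Fosb, chr7:19310091-19310115, minus strand: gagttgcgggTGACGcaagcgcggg
Jun, chr4:95052223-95052472, minus strand: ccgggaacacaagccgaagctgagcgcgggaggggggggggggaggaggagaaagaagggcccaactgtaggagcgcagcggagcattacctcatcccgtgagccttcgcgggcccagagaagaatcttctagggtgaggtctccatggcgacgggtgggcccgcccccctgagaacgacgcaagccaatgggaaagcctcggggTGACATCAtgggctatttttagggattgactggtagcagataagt
Nr4a1, chr15:101266596-101266845, plus strand: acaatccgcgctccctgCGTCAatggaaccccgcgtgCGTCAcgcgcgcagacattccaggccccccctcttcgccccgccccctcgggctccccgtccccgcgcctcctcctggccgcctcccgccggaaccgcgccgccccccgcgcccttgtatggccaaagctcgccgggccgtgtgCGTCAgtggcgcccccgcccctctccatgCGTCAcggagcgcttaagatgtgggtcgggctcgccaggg
Egr2, chr10:67537793-67537822, plus strand: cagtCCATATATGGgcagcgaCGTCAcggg

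On either strand TGACG was found in the windows of 6 of the 8 genes, namely Fos, Fosb, Junb, Egr2, Nr4a1 and Atf3, while 23.0% of the 27025 genes with windows held it. Nr4a1 held it at 4 places and Fos at 2, at -129 to -125 and at -66 to -62 from the start site. TGACNTCA, which holds TGACG where its N is G, was found in Jun alone, at -45 to -38, and in 10% of all genes. A CArG box was found in Egr2 alone among the 8 genes searched, from -72 to -63 within the stretch printed above. Another lay upstream of that stretch, in the Egr2 window of an earlier start site. Of all genes 1.81% held a CArG box. None of the 8 held TGACTCA, AAAGGTCA or GCGTGGGCG, which 5.95%, 1.7% and 0.707% of all genes held. These are matches of letters in a short window, and no binding was measured here.

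Library totals ran from 20425295 to 30889052 counts, and libraries of 1 group differed from each other by more than counting noise in all 24 pairs (chi-square per degree of freedom 11.8 to 204). All 8 adipocyte markers were above 0 in every library. Adipoq, the adiponectin gene, had 2863 ± 752, 2845 ± 244, 2298 ± 808 and 2712 ± 459 CPM (counts per 1000000 counts of the library, scaled by TMM; mean ± SD, n = 4) in Sham_Veh, Sham_SHU, VX_Veh and VX_SHU. In bulk tissue, fewer cells of a type and less RNA per cell cannot be told apart. Reads of neighbouring organs differed between libraries in each group: 11 epididymis markers summed to 10254 CPM in VX_SHU4, 9572 in VX_Veh4, 3160 in Sham_SHU4, 1581 in Sham_SHU3, 595 in Sham_Veh3 and 523 in Sham_Veh4, and to 4.03 to 88.0 CPM in the other libraries. Markers of ciliated epithelium were highest in VX_Veh1, at 1068 CPM, which also had the lowest adipocyte marker sum, 10628 CPM.

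No immediate early gene passed the threshold, an adjusted p under 0.05 in edgeR's quasi-likelihood test over all 16682 genes, in any of the 7 comparisons. Most of their fitted differences had the same sign after vagotomy: all 10 were above 0 after sDVX under vehicle (8 in limma-voom), where 51.5% of all genes were, and 9 of 10 under SHU9119, where 49.1% were. Those with the smallest p were in Jund, Ier2 and Egr1, at log2 0.28 ± 0.070, 0.31 ± 0.10 and 0.44 ± 0.15 (estimate ± SE, averaged over infusions). With SHU9119 the members had no common sign, and the difference farthest from 0 was in Fosb, for which 3 libraries were high. The share of all genes called was 0.114% for SHU9119 after sham surgery, 0.00599% for SHU9119 after sDVX, 1.87% for SHU9119 averaged over surgeries, and 0% for sDVX under vehicle, sDVX under SHU9119, sDVX averaged over infusions and the interaction. With shares this low, the lack of a called member among 10 does not set the members apart from the rest of the table in any of the 7 comparisons.

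**Figure D1:**
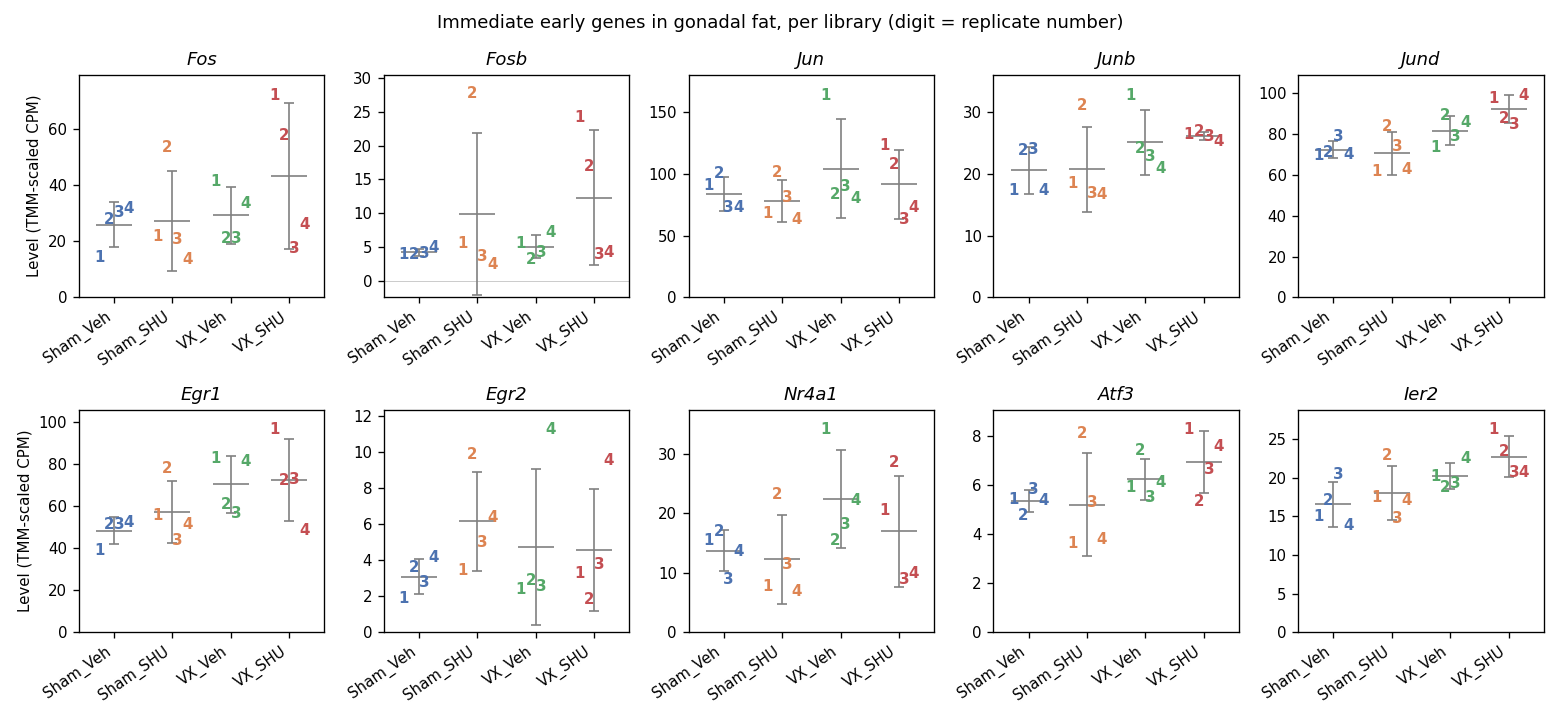
Levels of the 10 genes (vertical axis, TMM-scaled CPM, a separate scale for each gene) in the 4 groups (horizontal axis). Each digit is 1 library and gives its replicate number, and grey dashes with bars are the mean ± SD of 4 libraries; library 2 of Sham_SHU and library 1 of VX_SHU stand high for most genes, and for Fosb in Sham_SHU the SD (12) exceeds the mean (9.85).

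Fos, the partner of JUN proteins in AP-1 (chr12:85473890-85477274, GRCm38), had 14.1, 27.7, 30.1 and 31.6 CPM in Sham_Veh libraries 1 to 4 and 21.6, 53.3, 20.5 and 13.6 CPM in Sham_SHU. It had 41.3, 20.9, 20.8 and 33.4 CPM in VX_Veh and 71.9, 57.6, 17.4 and 25.8 CPM in VX_SHU. The ranges of the groups overlapped in every comparison, and the high values were single libraries: VX_SHU1, VX_SHU2 and Sham_SHU2. Group means were 25.9 ± 8.0, 27.3 ± 17.7, 29.1 ± 10.1 and 43.2 ± 25.8 CPM (SD, n = 4), in the order Sham_Veh, Sham_SHU, VX_Veh, VX_SHU that is kept below. The fitted log2 difference for SHU9119 was 0.076 ± 0.48 after sham surgery and 0.57 ± 0.49 after sDVX, with edgeR adjusted p = 0.936 and 0.638. For sDVX it was 0.17 ± 0.48 under vehicle and 0.66 ± 0.49 under SHU9119, with adjusted p = 0.91 and 0.609. The difference for SHU9119 after sham surgery was -0.47 without Sham_SHU2 and -0.13 without Sham_Veh1, so its sign rested on single libraries.

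Fosb, the second FOS family subunit here and a gene whose truncated product is known to outlast the others (chr7:19302696-19310118), had 3.97, 3.90, 4.09 and 4.96 CPM in Sham_Veh and 5.60, 27.7, 3.68 and 2.42 CPM in Sham_SHU. It had 5.57, 3.23, 4.27 and 7.11 CPM in VX_Veh and 24.2, 16.9, 3.93 and 4.16 CPM in VX_SHU. In 13 of the 16 libraries the level lay between 2.42 and 7.11 CPM, and the same 3 libraries that were highest for Fos held the other values. Group means were 4.23 ± 0.492, 9.85 ± 12, 5.05 ± 1.68 and 12.3 ± 10.002 CPM (SD, n = 4). Averaged over surgeries the log2 difference for SHU9119 was 1.25 ± 0.51, a fold of 2.38, with an unadjusted p of 0.0291 and an adjusted p of 0.134 in edgeR. Within each surgery it was 1.22 ± 0.73 after sham (adjusted p = 0.355) and 1.29 ± 0.73 after sDVX (adjusted p = 0.465). Leaving out Sham_SHU2 turned the first of these to -0.10 and lowered the average to 0.60, and leaving out VX_SHU1 lowered the second to 0.73. Without the 6 libraries whose epididymis or testis markers reached 500 CPM the averaged difference was 1.95 with an edgeR adjusted p of 0.0425. That fit called 4062 of 16644 genes. It left out Sham_Veh3, Sham_Veh4, Sham_SHU3, Sham_SHU4, VX_Veh4 and VX_SHU4, all among the 13 lower libraries. The 3 high libraries, all given SHU9119, were kept, so this difference rested on them too.

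Jun, the c-Jun subunit of AP-1 (chr4:95049036-95052222), had 90.6, 99.9, 72.6 and 72.6 CPM in Sham_Veh and 68.2, 101, 81.1 and 63.0 CPM in Sham_SHU. It had 164, 83.5, 89.8 and 80.0 CPM in VX_Veh and 123, 107, 63.0 and 73.0 CPM in VX_SHU. VX_Veh1 stood far above the 3 other libraries of its group, and the groups overlapped. The log2 difference for sDVX was 0.31 ± 0.26 under vehicle (adjusted p = 0.697) and 0.22 ± 0.26 under SHU9119 (adjusted p = 0.744), and the first was 0.035 without VX_Veh1.

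Junb (chr8:84976909-84978748), a JUN family subunit that often restrains c-Jun, ran from 17.2 to 24.0 CPM in Sham_Veh, from 16.6 to 31 in Sham_SHU, from 20.9 to 32.8 in VX_Veh and from 25.3 to 26.8 in VX_SHU. The 4 VX_SHU libraries were close together, 26.1 ± 0.663 CPM (SD, n = 4), and lay above 3 of the 4 Sham_SHU libraries. The exception was Sham_SHU2, the highest library of its group at 31 CPM. Averaged over infusions the log2 difference for sDVX was 0.31 ± 0.14, with an unadjusted p of 0.0465 and an adjusted p of 0.306 in edgeR.

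Jund, the JUN family subunit that is made more steadily and is less dependent on stimulation (chr8:70697739-70700616), had 69.6, 71.2, 78.8 and 70.1 CPM in Sham_Veh and 61.6, 83.8, 74.0 and 62.7 CPM in Sham_SHU. It had 73.5, 89.0, 78.7 and 85.8 CPM in VX_Veh and 97.3, 87.8, 84.7 and 98.8 CPM in VX_SHU. All 4 VX_SHU libraries were above all 4 Sham_SHU libraries, and only Jund among the members had its groups apart in that comparison, as 3.2% of all genes did with sDVX higher. Group means were 72.4 ± 4.29, 70.5 ± 10.5, 81.7 ± 6.98 and 92.2 ± 6.96 CPM (SD, n = 4). The log2 difference for sDVX was 0.39 ± 0.098 under SHU9119, a fold of 1.31, with an unadjusted p of 0.00159 and an adjusted p of 0.376 in edgeR. It was 0.17 ± 0.098 under vehicle, and the interaction was 0.21 ± 0.14 with an adjusted p of 0.999. Whether Jund was called under SHU9119 depended on the tool: DESeq2 gave an adjusted p of 0.0335 and called 93 genes (0.557%), limma-voom with sample weights gave 0.0167 and called 779 (4.67%), and edgeR called 0, with 1778 genes at an unadjusted p under 0.05. The same held for sDVX averaged over infusions, where Jund had an adjusted p of 0.224 in edgeR, 0.0165 in DESeq2 with 409 genes called (2.45%), and 0.0298 in limma-voom with 112 (0.671%). At an unadjusted p under 0.05 edgeR had 2666 genes there, 16% of those tested.

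Egr1, a zinc finger factor induced by growth factors and, in fat, by insulin, had 38.7, 51.1, 51.2 and 52.2 CPM in Sham_Veh and 55.5, 77.8, 43.4 and 51.5 CPM in Sham_SHU. It had 82.6, 60.9, 56.6 and 81.4 CPM in VX_Veh and 96.3, 72.2, 72.6 and 48.5 CPM in VX_SHU. All 4 VX_Veh libraries were above all 4 Sham_Veh libraries, and only Egr1 among the members had its groups apart in that comparison, as 0.935% of all genes did with sDVX higher. Group means were 48.3 ± 6.43, 57.1 ± 14.7, 70.4 ± 13.5 and 72.4 ± 19.5 CPM (SD, n = 4). The log2 difference for sDVX was 0.54 ± 0.21 under vehicle, a fold of 1.46, with an unadjusted p of 0.0245 and an adjusted p of 0.608 in edgeR. Under SHU9119 it was 0.34 ± 0.21 with an adjusted p of 0.546, and the groups overlapped there because VX_SHU4 was low and Sham_SHU2 high. In the vehicle comparison 1335 genes, 8% of those tested, had an unadjusted p under 0.05 and no gene was called by edgeR, while DESeq2 called 11 and limma-voom 4, none of them a member.

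Egr2, the EGR family factor known for roles in myelination and early fat cell differentiation (chr10:67534469-67542188), had 1.87, 3.57, 2.77 and 4.13 CPM in Sham_Veh and 3.42, 9.84, 4.97 and 6.35 CPM in Sham_SHU. It had 2.35, 2.88, 2.54 and 11.2 CPM in VX_Veh and 3.23, 1.83, 3.76 and 9.5 CPM in VX_SHU. The high libraries were VX_Veh4, Sham_SHU2 and VX_SHU4, of which only Sham_SHU2 was also high for Fos. VX_Veh4 and VX_SHU4 held the 2 highest sums of epididymis markers, and Sham_SHU2 held 61.7 CPM of them. The part of these markers in the Egr2 levels was not tested. The log2 difference for SHU9119 after sham surgery was 0.99 ± 0.59, with an adjusted p of 0.351 in edgeR, and that for sDVX was 0.62 ± 0.58 under vehicle and -0.42 ± 0.58 under SHU9119. Egr2 was the member that was not higher after sDVX under both infusions, and its vehicle value was -0.25 without VX_Veh4.

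Nr4a1, the orphan receptor NUR77 (chr15:101253902-101274795), had 15.4, 17, 8.92 and 13.6 CPM in Sham_Veh and 7.73, 23.1, 11.4 and 6.91 CPM in Sham_SHU. It had 34.1, 15.4, 18.2 and 22.2 CPM in VX_Veh and 20.5, 28.5, 8.88 and 9.96 CPM in VX_SHU. VX_Veh1 and VX_SHU2 were the highest libraries, and the groups overlapped in all comparisons of 2 groups. The log2 difference for sDVX averaged over infusions was 0.59 ± 0.31, a fold of 1.5, with an adjusted p of 0.367 in edgeR.

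Ier2, a nuclear protein of early induction (chr8:84661331-84662852), had 15, 17.1, 20.4 and 13.8 CPM in Sham_Veh and 17.4, 22.9, 14.7 and 17 CPM in Sham_SHU. It had 20.1, 18.8, 19.3 and 22.6 CPM in VX_Veh and 26.2, 23.4, 20.8 and 20.6 CPM in VX_SHU. Only Sham_Veh3 and Sham_SHU2 among the sham libraries were as high as the sDVX libraries given the same infusion. The log2 difference for sDVX averaged over infusions was 0.31 ± 0.10, a fold of 1.24, with an unadjusted p of 0.00925 and an adjusted p of 0.224 in edgeR. Under SHU9119 alone limma-voom gave Ier2 an adjusted p of 0.0436, against 0.466 in edgeR.

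Atf3, a CREB family factor induced by stress (chr1:191170296-191183333), ran from 4.77 to 5.82 CPM in Sham_Veh, 3.61 to 8.11 in Sham_SHU, 5.50 to 7.40 in VX_Veh and 5.31 to 8.24 in VX_SHU. Its log2 difference for sDVX averaged over infusions was 0.32 ± 0.17, with an adjusted p of 0.36 in edgeR. The groups overlapped, with Sham_SHU2 again the highest of its group.

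**Figure D2:**
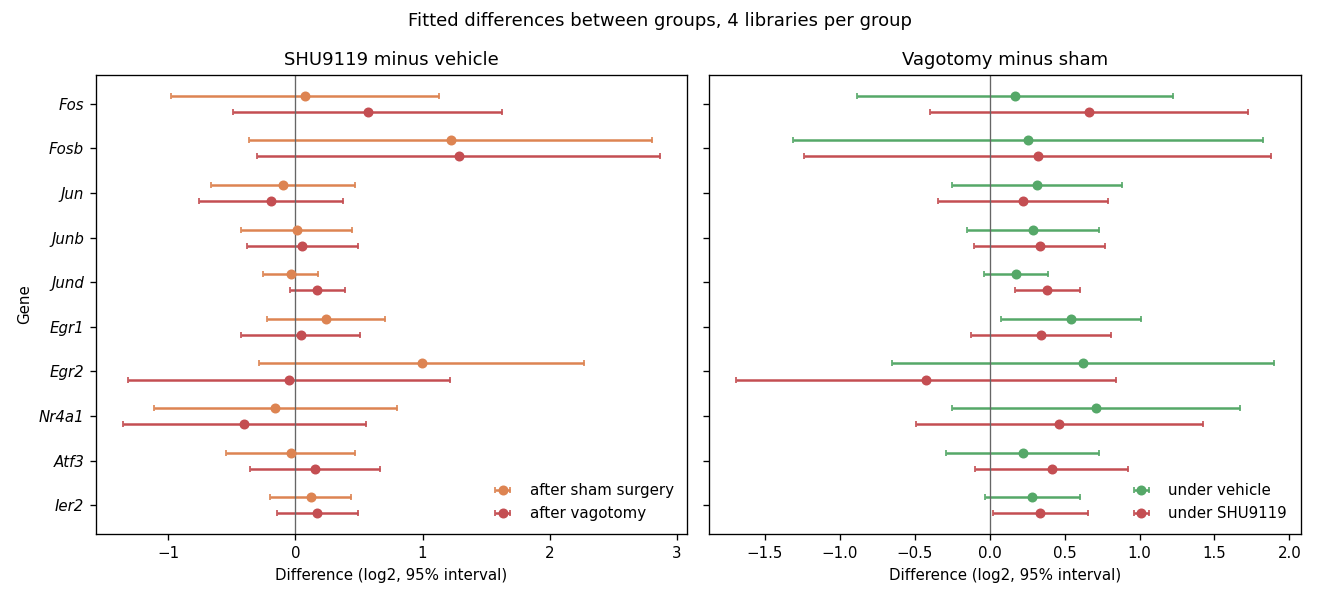
Fitted log2 differences (horizontal axis) for each gene (vertical axis), with 95% intervals from edgeR. Left, SHU9119 minus vehicle after each surgery; right, sDVX (vagotomy) minus sham under each infusion, where 19 of 20 points lie above 0 and the intervals of Egr1 under vehicle and of Jund and Ier2 under SHU9119 leave out 0.

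Read against all genes, the members' values after sDVX lay to 1 side. The median log2 difference of the 10 members was 0.29 under vehicle, 0.34 under SHU9119 and 0.31 averaged, where the medians of all genes were 0.0073, -0.0051 and 0.0013. The averaged difference was above 0 in all 10, against 50.3% of genes. That of Egr2 was below 0 in 2 fits that left out 1 library, at -0.34 in the lowest, and in other fits given further below. An unadjusted p under 0.05 with sDVX higher was found for 4 of 10 members averaged (5.16% of genes), for 1 under vehicle (1.64% of genes) and for 2 under SHU9119 (5.11% of genes). Under both infusions 9 of 10 members were higher after sDVX, against 32.5% of genes. The members are not independent in these counts, since the same libraries were high for several of them. The signs held under DESeq2 size factors and in DESeq2, while limma-voom with sample weights gave -0.0065 for Fosb and -0.051 for Jun under vehicle. Leaving out libraries turned Fos (-0.040 without Sham_Veh1 and -0.026 without VX_Veh1) and Egr2 (-0.25 without VX_Veh4) under vehicle, and Fosb (-0.24 without VX_SHU1 and -0.0043 without Sham_SHU4) under SHU9119. Without the 6 libraries of high epididymis or testis markers Egr2 had -0.065 under vehicle and Fosb -0.11 under SHU9119.

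For SHU9119 the medians of the members were 0.043 after sham surgery and 0.11 after sDVX, where those of all genes were -0.057 and -0.020. The first was -0.17 without Sham_SHU2. Differences were above 0 for 6 members after sham surgery (43.2% of genes), 7 after sDVX (46.9%) and 8 averaged (44.6%), and 1 member, Fosb, had an unadjusted p under 0.05 with SHU9119 higher on average (12.8% of genes). After both surgeries 5 of 10 members were higher with SHU9119, against 30.7% of genes, and Jun and Nr4a1 were lower after both, while Jund, Atf3 and Egr2 differed in sign between the surgeries. No member had groups apart, against 10.4% of genes after sham surgery and 4.95% after sDVX. The interaction of SHU9119 with sDVX had an adjusted p of 0.999 for every member, with estimates from -1.05 ± 0.82 for Egr2 to 0.49 ± 0.69 for Fos. It was above 0 for 6 members (48.1% of genes), and no member had an unadjusted p under 0.05 (4.76% of genes).

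The markers of adipocytes lay to the other side: after sDVX 0 of 8 were above 0 under vehicle, under SHU9119 and averaged over infusions, with median log2 differences of -0.27, -0.17 and -0.21, and edgeR called none. Of 7 markers of testis and sperm 0 were above 0 in the same 3 comparisons, with medians of -3.49, -2.94 and -3.22, none called by edgeR. Single sham libraries were high for them: the sums were 2134 CPM in Sham_Veh4 and 1061 CPM in Sham_SHU3. In the rest of Sham_Veh and Sham_SHU they were 3.39 to 160 and 19.2 to 155 CPM. In VX_Veh and VX_SHU they were 22.2 to 113 and 2.79 to 194 CPM. Of 7 markers of smooth muscle and pericytes 6 were above 0 in each sDVX comparison, with medians of 0.44 under vehicle and 0.75 under SHU9119, and edgeR called none. Their summed level was 1045 to 1125 CPM in Sham_Veh, 1038 to 1165 in Sham_SHU, 1103 to 1569 in VX_Veh and 1034 to 1526 in VX_SHU. Of the libraries highest for the members, VX_SHU1, VX_SHU2 and VX_Veh4 had sums of 1497, 1526 and 1569 CPM, but Sham_SHU2 and VX_Veh1 had 1075 and 1103 CPM. Over all 16 libraries the log2 sum had r = 0.55 with the mean of the members' log2 CPM, each centred and scaled. For every other marker list r was nearer to 0, the next being -0.26 for testis and sperm. The part of these cell types in the members' levels was not tested.

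The spread between libraries of 1 group differed greatly among the members. The SD within groups was 1.05 on the log2 scale for Fosb, 0.817 for Egr2, 0.733 for Fos and 0.647 for Nr4a1, and 0.207 for Ier2 and 0.140 for Jund. The median gene of the table had 0.254. Because the spread falls with the level, each member was also placed among the 1000 genes nearest to it in level. There Fos was at percentile 98.2, Jun at 95.1, Nr4a1 at 92.3, Egr1 at 88.9 and Fosb at 85.7. Jund, Atf3 and Ier2 were at 44, 50 and 53.6, in the middle of genes of their level. Over the 16 libraries the highest value was 11.4 times the lowest for Fosb, 5.30 times for Fos and 1.60 times for Jund.

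**Figure D3:**
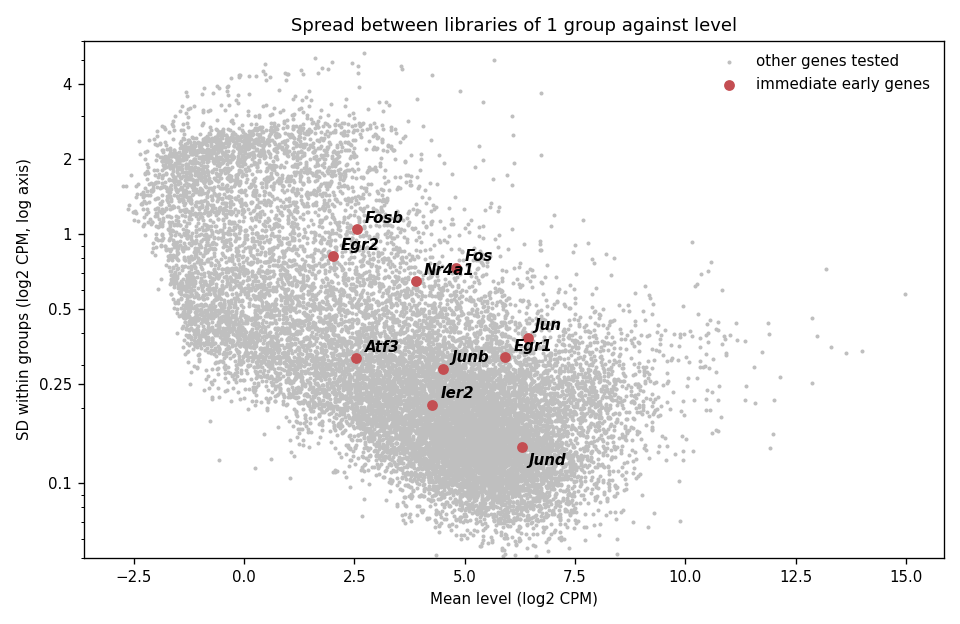
SD between libraries within groups (vertical axis, log2 CPM, log axis) against the mean level (horizontal axis, log2 CPM) for the genes tested, with the 10 immediate early genes in red. Fos, Nr4a1 and Jun lie above most genes of their level, and Jund lies near the middle.

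High and low values fell on the same libraries for most members. When each member was centred and scaled over the 16 libraries, all 10 were above their own mean in Sham_SHU2, 9 in VX_SHU1, 8 in VX_SHU2 and in VX_Veh4, and 7 in VX_Veh1. In Sham_SHU1 no member was above its mean, and in Sham_SHU3 and Sham_SHU4 only 1 was. The mean of the scaled values was 1.29 SDs in VX_SHU1 and 1.20 in Sham_SHU2, and -1.07 in Sham_SHU4. So the libraries of Sham_SHU held both the lowest value of all and the second highest.

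**Figure D4:**
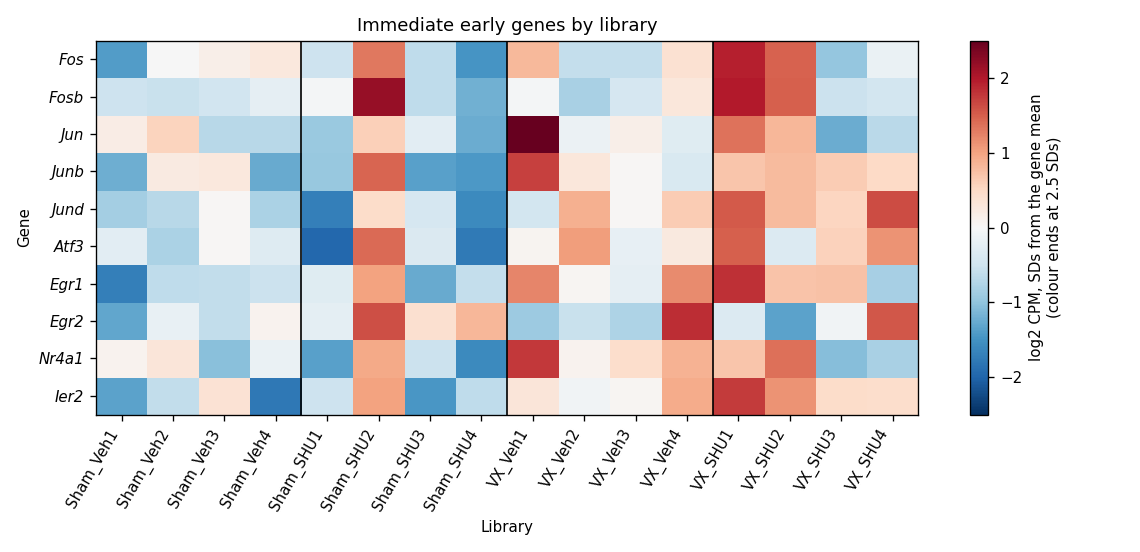
Log2 CPM of each gene (rows) in each library (columns), as SDs from the gene's mean over 16 libraries, with black lines between groups. The columns of Sham_SHU2 and VX_SHU1 are red in nearly all rows, and the row of Egr2 has its own pattern with VX_Veh4, Sham_SHU2 and VX_SHU4 high.

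The relation of Fos to each of the 9 other members was measured over the 16 libraries, with 2-sided permutation tests and Benjamini-Hochberg adjustment over the 9 relations. Fosb followed Fos most closely (Pearson's r = 0.874, permutation p = 1e-05, the smallest that 100000 permutations can give, adjusted p = 9e-05; Spearman's rho = 0.818, permutation p = 0.00021, adjusted p = 0.00189). For Egr1 r was 0.723 (permutation p = 0.00193, adjusted p = 0.00868) and rho 0.618 (permutation p = 0.0125, adjusted p = 0.0225). For Nr4a1 r was 0.684 (permutation p = 0.00383, adjusted p = 0.0103) and rho 0.697 (permutation p = 0.00371, adjusted p = 0.0167). Ier2, Jun and Junb also passed, with r = 0.672, 0.653 and 0.644 (permutation p = 0.00465, 0.00573 and 0.00802, adjusted p = 0.0103, 0.0103 and 0.012) and rho = 0.635, 0.597 and 0.641 (permutation p = 0.00954, 0.0157 and 0.00875, adjusted p = 0.0215, 0.0236 and 0.0215).

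Jund, Atf3 and Egr2 did not pass. Their r was 0.518, 0.488 and 0.0293 (permutation p = 0.0409, 0.0559 and 0.914, adjusted p = 0.0526, 0.0629 and 0.914) and their rho 0.435, 0.397 and -0.05 (permutation p = 0.0937, 0.129 and 0.857, adjusted p = 0.12, 0.146 and 0.857). Taken as deviations from group means, and permuted within groups, the same 6 relations passed, with r from 0.598 for Junb to 0.892 for Fosb. Without VX_SHU1 and VX_SHU2, the 2 libraries farthest from the median of Fos, r was 0.767 for Fosb, 0.639 for Junb and 0.632 for Nr4a1 and these passed, with permutation adjusted p = 0.00279, 0.0474 and 0.0474. The relations of Fos with Egr1, Jun and Ier2 no longer did, at r = 0.602, 0.539 and 0.473, so those rest in part on these 2 libraries.

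**Figure D5:**
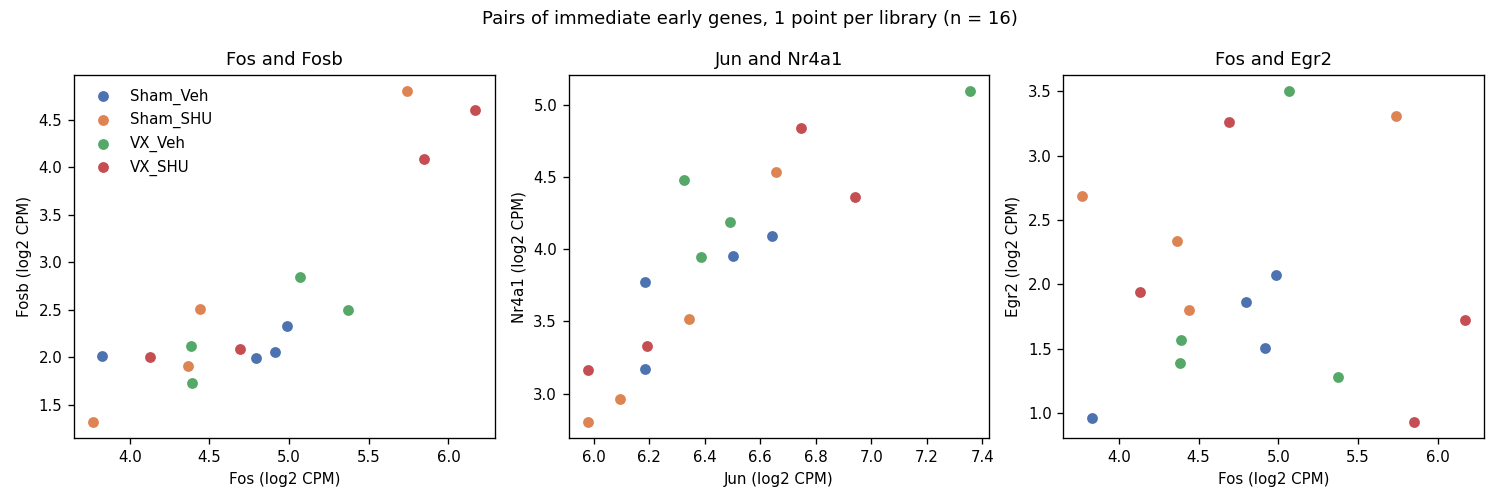
Log2 CPM of pairs of genes, 1 point per library in the colour of its group (n = 16). Fosb rises with Fos (r = 0.874, and 0.767 without VX_SHU1 and VX_SHU2), and 3 libraries are high for both. VX_Veh1 is highest for both Jun and Nr4a1, and Egr2 shows no such course with Fos (r = 0.0293).

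Per length of exons, as the mean CPM over the 16 libraries for each kilobase of annotated exon (GENCODE M21), Jund was the most abundant member at 47.5 CPM per kb and Jun followed at 28.1. Egr1, Fos and Ier2 were close together at 13.8, 13.3 and 12.7 CPM per kb, less apart than the libraries of each gene, and Junb was at 10.1. Nr4a1 and Atf3 had 4.66 and 2.75 CPM per kb, and Egr2 and Fosb were lowest at 1.37 and 1.26. Part of the exon length may not be used in fat, so this order is approximate.

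Among 9 lists of other genes of the same pathways, with 115 genes tested, edgeR called 1 gene in 1 comparison. DESeq2 called 4 list genes for SHU9119 after sham surgery (3.48%, where it called 7.22% of all genes), 10 for SHU9119 averaged (8.7%, against 16.7%) and 3 for sDVX averaged (2.61%, against 2.45%). Limma-voom called 23 for SHU9119 after sham surgery (20%, against 23.2%), 18 for SHU9119 averaged (15.7%, against 23.4%), 8 for sDVX under SHU9119 (6.96%, against 4.67%) and 2 for sDVX averaged (1.74%, against 0.671%). DESeq2 called none for sDVX under SHU9119, and neither tool called one for SHU9119 after sDVX, sDVX under vehicle or the interaction. Calls below are those of edgeR unless another tool is named, and for the genes named the calls of the other tools in the same comparison are given. The counts of each list below are of genes called in any comparison, for which no share of all genes was made. In a single comparison limma-voom called up to 23.4% of all genes and DESeq2 up to 16.7%. These counts therefore do not set a list apart. Ier5, an early response regulator of stress and growth signals related to Ier2, fell with SHU9119 averaged over surgeries (log2 -0.76 ± 0.17, adjusted p = 0.0454 in edgeR, where 1.87% of all genes were called). Its levels were 30.1 ± 6.69 and 14.6 ± 2.34 CPM in Sham_Veh and Sham_SHU, and 25.8 ± 8.76 and 18.5 ± 3.37 CPM in VX_Veh and VX_SHU (SD, n = 4). The Sham_SHU libraries, at most 16.8 CPM, were all below the Sham_Veh libraries, at least 26.3 CPM, as was so for 4.82% of all genes. The call was close to the threshold: it was lost in 13 of 16 fits that left out 1 library, in which the difference stayed between -0.86 and -0.65 and the adjusted p ran from 0.0263 to 0.108. It was also lost with the replicate block (adjusted p = 0.0765) and without the low-count filter (adjusted p = 0.0533). With the epididymis and ciliated marker sums as covariates the difference was -0.65 and the call was lost with an adjusted p of 0.284, the largest of all these fits. DESeq2 and limma-voom gave Ier5 0.00129 and 0.00652. Ier2, its relative among the members, had 0.15 ± 0.10 in that comparison.

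Of the 12 tested genes of other AP-1 subunits and partners edgeR and DESeq2 called none in any comparison and limma-voom 2. Of 5 other EGR, NR4A and NAB genes edgeR and DESeq2 called none and limma-voom 1. Among the genes with the smallest p of the AP-1 list, as log2 differences, were Batf3 (-0.53) and Jdp2 (0.36) for SHU9119 after sham surgery, Maf (0.30) for SHU9119 after sDVX, Maff (0.51) for sDVX under vehicle, and Batf3 (0.56) and Maf (0.24) for sDVX under SHU9119. Limma-voom called Jdp2 for SHU9119 after sham surgery (0.51, adjusted p = 0.0363) and Batf3 for sDVX under SHU9119 (0.83, adjusted p = 0.0457). Egr3, Nr4a2 and Nr4a3, the closest relatives of members, were at 4.14 CPM or less on average in every group, and their differences did not pass in edgeR: Egr3 had 0.51 for SHU9119 after sham surgery and -0.67 for sDVX under SHU9119, Nr4a3 -0.12 for SHU9119 after sDVX and Nr4a2 0.38 for sDVX under vehicle. The corepressors Nab1 and Nab2 had 0.24 and 0.13 for SHU9119 after each surgery (Nab1), and 0.12 and 0.21 for sDVX under each infusion (Nab2). Limma-voom called Nab1 for SHU9119 after sham surgery (adjusted p = 0.0376). Without VX_Veh4 the values of Nr4a3 for SHU9119 after sDVX, and of Nr4a2 and Nab2 for sDVX under vehicle, turned to 0.019, -0.20 and -0.022.

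A list of 13 other immediate early genes was made of transcription factors and like genes, and Arc in it is not a transcription factor. Of these 13 edgeR called only Ier5, and DESeq2 and limma-voom called 3 each, with 5 of 13 above 0 for SHU9119 and 8 of 13 for sDVX, both averaged. By comparison Ier5 had -1.04 and -0.48 for SHU9119 after sham surgery and sDVX. DESeq2 and limma-voom called Ier5 after sham surgery too (adjusted p = 0.00221 and 0.00834). Klf6 (0.44) followed in the first and Cebpb (0.53) in the second. Arc had -2.54 for sDVX under vehicle, which turned to 0.32 without Sham_Veh4, the library at 32.9 CPM in a group of 9.18 ± 15.8 CPM (SD, n = 4). Klf4 had -0.25 there, and 0.081 without the 6 libraries of high epididymis or testis markers. For sDVX under SHU9119 Myc had 0.35 and Klf6 -0.26, and limma-voom called Myc (0.49, adjusted p = 0.0456).

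Genes that switch the early response off are transcribed with it, and 20 of 20 in that list were tested. In any comparison edgeR called none, DESeq2 1 and limma-voom 6, where limma-voom called 23.2% of all genes for SHU9119 after sham surgery alone. For sDVX averaged over infusions 14 of 20 were above 0, with a median of 0.11. Spry4, an inhibitor of receptor tyrosine kinase signalling, came nearest to the threshold: it had 25.9 ± 2.76 CPM in Sham_Veh and 39.9 ± 3.69 in Sham_SHU (log2 0.62 ± 0.20, adjusted p = 0.124 in edgeR, 0.0366 in DESeq2 and 0.0414 in limma-voom). The groups did not overlap, as for 5.6% of all genes with SHU9119 higher. List genes were named for a small p, which makes groups without overlap likely among them. Dusp6, the ERK phosphatase, was at 35.6 ± 4.38 and 48.1 ± 8.80 CPM in the same groups (log2 0.44 ± 0.15, adjusted p = 0.154). For SHU9119 after sDVX Spry4 had 0.50 and Ppp1r15a -0.34. For sDVX the smallest p were those of Spry1 (0.47) and Dusp6 (0.34) under vehicle and of Dusp2 (0.78) and Zfp36l1 (0.43) under SHU9119, where limma-voom called Zfp36l1 (0.51, adjusted p = 0.0456). Of the 17 tested other early response genes edgeR called none, DESeq2 1 and limma-voom 4. Ccn2 and Ccn1, matricellular proteins of the YAP and SRF response, had the smallest p for sDVX under vehicle. Ccn2 was at 28.0 ± 4.61 CPM in Sham_Veh and 56.8 ± 20.5 in VX_Veh (log2 1.02 ± 0.37, adjusted p = 0.608), with no overlap, as for 0.935% of all genes with sDVX higher. Ccn1 was at 41.4 ± 10.6 and 64.3 ± 13.3 CPM (log2 0.64 ± 0.30, adjusted p = 0.608).

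Ccl2, the monocyte chemokine, had 5.87 ± 3.08 CPM in Sham_Veh and 14.9 ± 4.40 in Sham_SHU, but 4.26 ± 1.45 in VX_Veh and 6.18 ± 4.85 in VX_SHU. Its log2 difference was 1.34 ± 0.47 for SHU9119 after sham surgery (adjusted p = 0.156 in edgeR) and -1.27 ± 0.47 for sDVX under SHU9119 (adjusted p = 0.446), and limma-voom called both (adjusted p = 0.00386 and 0.0101). The other genes with the smallest p of that list were Gadd45g (-0.82) for SHU9119 after sham surgery, Plk2 (0.32) and Hbegf (-0.43) after sDVX, and Ptgs2 (-1.83) for sDVX under SHU9119. Limma-voom called Gadd45g (adjusted p = 0.0233). The Ptgs2 value rested on Sham_SHU2, the highest library of a group of 5.73 ± 9.53 CPM (SD, n = 4): it turned to 0.72 without that library and was 0.33 in limma-voom.

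Of 21 kinases and factors that act on immediate early promoters edgeR called none, DESeq2 4 and limma-voom 7 in any comparison. For SHU9119 after sham surgery alone limma-voom called 23.2% of all genes. Srf was at 36.4 ± 1.41 CPM in Sham_Veh and 42.1 ± 3.77 in VX_Veh (log2 0.21 ± 0.073, adjusted p = 0.608 in edgeR). Rps6ka1, a kinase downstream of ERK, and Crtc2, a CREB coactivator, had 0.31 ± 0.086 and 0.28 ± 0.085 for sDVX under SHU9119, with adjusted p = 0.432 and 0.441 in edgeR and 0.04 and 0.0268 in limma-voom. Rps6ka3, of the same kinase family, had 0.45 and 0.37 for SHU9119 after sham surgery and sDVX, beside Map2k2 (0.28) after sham surgery and Crtc3 (0.23) after sDVX, and limma-voom called Rps6ka3 and Map2k2 after sham surgery (adjusted p = 0.02 and 0.0141). Crem, which includes repressors of the CREB response, had -0.47 for sDVX under vehicle.

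Of the 8 cyclic AMP response genes edgeR called none, DESeq2 2 and limma-voom 3 in any comparison, where limma-voom called 23.2% of all genes for SHU9119 after sham surgery alone. Sik1, a kinase that CREB induces, was at 34.9 ± 5.91 CPM in Sham_Veh and 63.7 ± 14.7 in VX_Veh (log2 0.87 ± 0.32, adjusted p = 0.608 in edgeR). Its groups did not overlap, as for 0.935% of all genes with sDVX higher. Pde4d, which breaks down cyclic AMP, was at 11.1 ± 0.699 CPM in Sham_Veh and 18.5 ± 5.15 in Sham_SHU (log2 0.73 ± 0.21, adjusted p = 0.1 in edgeR, 0.0189 in DESeq2 and 0.029 in limma-voom). These groups did not overlap either, as for 5.6% of all genes with SHU9119 higher. Dio2, the deiodinase of thermogenic fat, was at 0.794 ± 0.334 and 2.00 ± 0.806 CPM in Sham_Veh and Sham_SHU (log2 1.33 ± 0.44, adjusted p = 0.14 in edgeR and 0.0219 in limma-voom) and had -0.94 ± 0.44 for sDVX under SHU9119. The other genes with the smallest p of this list were Ppargc1a (-0.90) and Lipe (0.32) for SHU9119 after sDVX, Pde3b (-0.28) for sDVX under vehicle and Sik1 (0.44) for sDVX under SHU9119. Of the 10 heat shock genes edgeR called none, DESeq2 3 and limma-voom 4, and 4 of 10 were above 0 for sDVX averaged, with a median of -0.024. Hsph1 had -1.16 ± 0.46 for SHU9119 after sDVX (adjusted p = 0.427), beside Bag3 (0.21). The mitochondrial chaperonins Hspd1 and Hspe1 had 0.44 and 0.38 for SHU9119 after sham surgery, and Hspd1 had -0.41 for sDVX under SHU9119. After sham surgery DESeq2 called Hspd1 (adjusted p = 0.0316) and limma-voom Hspd1 and Hspe1 (adjusted p = 0.0064 and 0.0192), and limma-voom called Hspd1 for sDVX under SHU9119 (adjusted p = 0.0282). Hspa8 had 0.25 and 0.31 for sDVX under vehicle and SHU9119, and Bag3 had -0.12 under vehicle. Of the 9 tested genes of the integrated stress response, which includes factors that act on Atf3, edgeR and DESeq2 called none and limma-voom 1, and 3 of 9 were above 0 for sDVX averaged, with a median of -0.065. Trib3 had 0.56 ± 0.22 for SHU9119 after sDVX (adjusted p = 0.427) and 0.59 ± 0.22 for sDVX under SHU9119 (adjusted p = 0.455). Ddit3 had -0.17, 0.21 and -0.25 for SHU9119 after sham surgery, SHU9119 after sDVX and sDVX under vehicle, Atf4 had -0.11 for SHU9119 after sham surgery and 0.24 for sDVX under SHU9119, where limma-voom called it (0.25, adjusted p = 0.0495), and Cebpg had -0.18 for sDVX under vehicle.

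The genes whose course over the 16 libraries was most like the mean scaled value of the members were sought among genes of at least 5 CPM, by Pearson's r as a measure of likeness. Outside the members and the lists these were Bmp6 (r = 0.85), Tob2 (0.81), Zfyve27 (0.79), Avpi1 (0.78), Synpo (0.77), Ssbp4 (0.77), Tsr3 (0.77), Sergef (0.76), Zfyve19 (0.75) and Niban2 (0.74). EdgeR called none of these 10 in any comparison. Of the pathway list genes 8 of 98 were among the 100 most like genes, that is 8.16%, against 83 of 11886 other genes, 0.698%. They were Ccn1, Ccn2, Per1, Sik1, Mafk, Cebpd, Plk3 and Zfp36. Ccn1 was closest, with r = 0.85, and Ccn2 had 0.80. All 9 members of at least 5 CPM were among the 100 too, as the measure itself makes likely, while Egr2 was below 5 CPM.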

How the data were processed

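Gonadal fat polyA RNA was sequenced as 16 libraries in 4 groups of 4. Read counts per gene were deposited as raw whole numbers under NCBI gene numbers. Per the submitters' processing notes bcl2fastq, TopHat and edgeR were used with the build mm10. Which counter, annotation and strand were used is "not given in the sources used here", so reads of overlapping and antisense genes may be shared. Gene numbers were matched to symbols for 24374 of 24454 rows. With R 4.3.3 and edgeR 4.0.16, genes were filtered by filterByExpr, scaled by TMM, and tested with the robust quasi-likelihood test over all 4 groups (1 mean per group, 12 residual degrees of freedom) with Benjamini-Hochberg adjustment. The 4 single comparisons, the interaction and 2 averages gave 7 contrasts, called at an adjusted p under 0.05. Log2 CPM used a prior count of 2. Members had 48 counts or more per library, and for them replicate number limits precision more than depth. Some list genes named above were far lower: in Sham_SHU the lowest library had 0.379 CPM for Ptgs2 and 0.494 CPM for Dusp2. For such genes depth may limit precision too. Alternatives were DESeq2 1.42.0, limma 3.58.1 (voom with sample weights), other scaling and filters, a replicate block, marker covariates, only the groups compared, and left-out libraries. The script was tested on simulated data. It narrowly missed the initial bar, which was on the share of large differences recovered. That bar was replaced by other checks after this was seen. Large differences were thus not always called there, and a member that was not called may still differ.

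The members and lists were chosen with earlier results of these data known. Named genes were all 10 members, list genes past the threshold or with the 2 smallest p of a list in each of the 4 single comparisons, and the 10 most like genes. Of these, 1 list gene is not reported here. Replicate numbers were not used as pairs in the main fit. Of 24 same-numbered pairs 13 had deviations correlated above 0.1 (median 0.18, from -0.69 to 0.68). These mixed values do not settle whether the numbers pair the samples.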

Additional observations from a re-analysis of the deposited data

Results flagged for a closer look

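In groups of 4 libraries, a library was singled out where its gap to the nearest other library as a share of the range of the group, exceeded Dixon's 95% critical value. Of the 40 combinations of gene and group 5 met this, where chance gives about 1 in 20. Fos (14.1 CPM) and Egr1 (38.7 CPM) were low in Sham_Veh1. Jun was high in VX_Veh1 (164 CPM), the library with the lowest adipocyte marker sum, 10628 CPM, and the highest ciliated epithelium sum, 1068 CPM. Junb was high in Sham_SHU2 (31 CPM), where all 10 members were above their means and epididymis markers summed to 61.7 CPM. Egr2 was high in VX_Veh4 (11.2 CPM), which held 9572 CPM of epididymis markers. The part of the neighbouring tissue in these values was not tested. None of the 10 interactions of SHU9119 with sDVX passed the threshold.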

How the results depend on the processing

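No member was called in any comparison with the size factors of DESeq2, without robust dispersion, without a low-count filter, with the replicate block or the marker covariates, in the fits of only the groups compared (made for the 4 single comparisons), or in any of the 16 fits that left out 1 library. For sDVX under SHU9119 DESeq2 called 1 member (Jund) and limma-voom 2 (Jund and Ier2), and for sDVX averaged each called 1 (Jund). Without the 6 libraries of at least 500 CPM epididymis or testis markers 2 were called for SHU9119 averaged (Fosb, and Ier2 at 0.32 with an adjusted p of 0.0495 in edgeR). That fit called 4062 of all 16644 genes, so 2 of 10 members does not set them apart. Of the relations of Fos, 6 passed within groups and 3 without the 2 farthest libraries. The causes were not tested. With the replicate block 0 members and 0 genes of the table were called in every comparison, and 2 of 16 libraries correlated best with libraries of their own number. Over all genes, DESeq2 and limma-voom called 1205 and 3874 for SHU9119 after sham (edgeR 19), 54 and 20 after sDVX (1), 2792 and 3899 averaged (312), 8 and 13 for the interaction (0). Leaving out 1 library moved the edgeR count from 0 to 982 for SHU9119 after sham and from 3 to 1612 averaged.

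With epididymis and ciliated marker sums as covariates the log2 difference changed sign to, for SHU9119 after sham Jun 0.10, Junb -0.0071 and Nr4a1 0.16, for SHU9119 after sDVX Jun 0.042 and Egr1 -0.094, for SHU9119 averaged Jun 0.073 and Atf3 -0.011, for sDVX averaged Egr2 -0.043. With limma-voom the log2 difference changed sign to, for SHU9119 after sham Junb -0.075, for SHU9119 after sDVX Jun 0.21 and Nr4a1 0.14, for sDVX under vehicle Fosb -0.0065 and Jun -0.051, for sDVX under SHU9119 Ptgs2 0.33, for the interaction Jun 0.55, Egr1 0.051 and Nr4a1 0.83, for SHU9119 averaged Atf3 -0.066, for sDVX averaged Egr2 -0.31. With the replicate block the log2 difference changed sign to, for SHU9119 after sham Fos -0.095 and Junb -0.013, for SHU9119 after sDVX Egr2 0.077, for sDVX averaged Egr2 -0.10. Without the 6 libraries of at least 500 CPM epididymis or testis markers the log2 difference changed sign to, for SHU9119 after sham Jund 0.055 and Atf3 0.21, for SHU9119 after sDVX Egr2 0.21 and Nr4a3 0.013, for sDVX under vehicle Egr2 -0.065, Nr4a2 -0.15 and Klf4 0.081, for sDVX under SHU9119 Fosb -0.11, for the interaction Fosb -0.26, Jun 0.00012, Junb -0.24, Atf3 -0.077 and Ier2 -0.034, for sDVX averaged Egr2 -0.60.

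The sign also changed in some fits that left out 1 library, with these lowest and highest values: for SHU9119 after sham Atf3 (-0.32 to 0.096), Fos (-0.47 to 0.30), Fosb (-0.10 to 1.55), Jun (-0.23 to 0.015), Junb (-0.23 to 0.10), Jund (-0.11 to 0.021) and Nr4a1 (-0.65 to 0.039), for SHU9119 after sDVX Egr1 (-0.13 to 0.19), Egr2 (-0.69 to 0.82), Jun (-0.36 to 0.13), Junb (-0.024 to 0.22) and Nr4a3 (-0.21 to 0.019), for sDVX under vehicle Arc (-2.92 to 0.32), Egr2 (-0.25 to 0.87), Fos (-0.040 to 0.30), Nab2 (-0.022 to 0.21) and Nr4a2 (-0.20 to 0.58). It did so too for sDVX under SHU9119 Fosb (-0.24 to 1.66) and Ptgs2 (-2.17 to 0.72), for the interaction Fosb (-0.50 to 1.41), Ier2 (-0.065 to 0.19), Jun (-0.26 to 0.21), Junb (-0.049 to 0.31) and Nr4a1 (-0.62 to 0.27), for SHU9119 averaged Atf3 (-0.072 to 0.14), Jun (-0.23 to 0.022) and Junb (-0.076 to 0.12), for sDVX averaged Egr2 (-0.34 to 0.26). All these were differences that did not pass in edgeR with all libraries.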

Other observations

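Of cell types other than smooth muscle, summed markers of endothelium were 968 to 1398 CPM in Sham_Veh, 1120 to 1564 in Sham_SHU, 803 to 1294 in VX_Veh and 1148 to 1599 in VX_SHU. Macrophage markers summed to 594 to 708, 555 to 660, 405 to 639 and 556 to 793 CPM in the same order, and fat stromal cell markers to 2562 to 2826, 2502 to 2927, 2048 to 2621 and 2849 to 3335 CPM. Their part in the levels of the immediate early genes was not tested.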
